A study of Mus musculus with 2 samples.

Results

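The 37 genes that mouse mitochondria carry in their own circular genome were followed in RNA sequencing of the embryonic limb. They were chosen as the rows whose gene identifier maps to a GENCODE M21 symbol starting with mt-, which gave 37 of 43346 mouse gene rows: 13 messenger RNAs (mRNAs), 2 ribosomal RNAs (rRNAs) and 22 transfer RNAs (tRNAs). The 13 mRNAs and 2 rRNAs together held 1.14% of gene counts in replicate 1 and 1.52% in replicate 2 (1.33% ± 0.268, SD, n = 2), and the 22 tRNA rows held none. The highest rows were mt-Atp6 and mt-Atp8, the only pair of ATP synthase genes in this genome, and the lowest was mt-Nd4l, a complex I subunit. For 6 of the 13 mRNAs between 8.47% and 90.1% of the reads were booked on a nearly identical nuclear copy, which changed their levels and their order.

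The mitochondrial genome is transcribed from both strands into long precursors that span many genes. The tRNAs lie between most of the rRNAs and mRNAs, and their excision releases the neighbours, so that genes made on the same precursor can still differ in level through processing and decay. All the mitochondrially encoded proteins are subunits of the oxidative phosphorylation complexes I, III, IV and V, whose other subunits are encoded in the nucleus, made in the cytosol and imported. Pieces of mitochondrial DNA have also been inserted into nuclear chromosomes during evolution, where they are annotated as pseudogenes.

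The tissue was limb of B6NCrl mouse embryos at 15.5 days, male and female pooled, and nothing was treated or mutated. Replicate 1 was a pool of 78 embryos and replicate 2 a separate pool of 62 embryos, and both carry the same donor label. Extraction was by mirVana, only RNA over 200 nt went on, each library was made from 10 ng with spike-in RNAs, and a SMARTer Ultra Low manual is among the protocols listed. Which limbs were taken, fore or hind, is not given in the labels. The single group of 2 libraries allows no comparison of conditions and no test, so each value is given for both libraries.

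Expected counts (estimated reads per gene) summed to 35104685 in replicate 1 and 41757268 in replicate 2, of which spike-ins took 2.28% and 2.26%. All 9 limb and cartilage markers were detected, from Col2a1 at 689 and 731 TPM in replicates 1 and 2 to Hoxa13 at 9.27 and 14.3 TPM. TPM, the level per length, scaled to the same total of 1000000 in each library, divides counts by effective length, which for most rows was the listed length minus 99 bases, the number of places where a 100-base read can start. The summed TPM of 9 skeletal muscle markers was 8534 in replicate 1 and 2704 in replicate 2, that of 4 liver markers was 9.76 and 45.2, and that of 3 brain markers was 0.14 and 0.25.

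Sequence sets how far each of these rows can be measured, so the stretches that matter are shown here first (GENCODE M21 transcript sequences, GRCm38, the same build as the mm10 of the deposited tables). A block on the minus strand of chromosome 1 (chr1:24611535-24616197) holds 7 annotated copies that follow mt-Co1, mt-Co2, mt-Atp6, mt-Co3, mt-Nd3, mt-Nd4l and mt-Nd4, and 5 of the 7 are identical to the mitochondrial gene over their whole length. The other 2 differ by a single base each in the aligned part, A1066T between mt-Co1 and Gm29216 and T3C between mt-Nd3 and Gm28438 (positions counted from 1 at the 5′ end of the mitochondrial gene, whose base is given first). Capitals mark the differing base in mt-Co1 at chrM:6390-6433 and Gm29216 at chr1:24616145-24616188, and in mt-Nd3 at chrM:9459-9521 and Gm28438 at chr1:24613057-24613119.
mt-Co1: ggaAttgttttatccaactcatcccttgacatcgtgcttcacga
Gm29216: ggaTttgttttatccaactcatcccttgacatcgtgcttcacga
mt-Nd3: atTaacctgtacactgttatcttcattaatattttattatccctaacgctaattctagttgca
Gm28438: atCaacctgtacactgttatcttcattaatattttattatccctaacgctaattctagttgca

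Mitochondrial genes also run into each other. Of 36 neighbouring pairs of rows 9 overlapped, 12 touched with no base between them, and the widest gap was 32 bases. A 100-base read fits within a single plus-strand row at 12035 of 15323 positions (78.5%), and a read that crosses a border cannot lie wholly inside either row. The longest overlap joins mt-Atp8 to mt-Atp6 over 43 bases, and the whole of mt-Atp8 (chrM:7766-7969, plus strand) is shown with the overlap in capitals, beginning with the ATG start codon of mt-Atp6.
mt-Atp8: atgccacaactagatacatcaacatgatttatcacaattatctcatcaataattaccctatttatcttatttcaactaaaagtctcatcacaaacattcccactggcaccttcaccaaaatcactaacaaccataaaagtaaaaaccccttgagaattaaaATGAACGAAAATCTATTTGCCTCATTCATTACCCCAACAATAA

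The ends of mt-Nd5 (chrM:13506-13565, plus strand) and mt-Nd6 (chrM:13552-13611, minus strand) overlap by 14 bases on opposite strands. Both are written 5′ to 3′ with the overlap in capitals.
mt-Nd5: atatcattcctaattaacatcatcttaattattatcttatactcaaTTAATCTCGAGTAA
mt-Nd6: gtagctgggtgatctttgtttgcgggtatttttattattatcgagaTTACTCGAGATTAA

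The mRNAs mt-Co3, mt-Nd4 and mt-Cytb have lengths that are no multiple of 3. Each ends on a lone base after the last whole codon, shown in capitals in the last 30 bases (chrM:9361-9390, chrM:11515-11544 and chrM:15259-15288, all plus strand). In mitochondria such a stop codon is completed by the poly(A) tail.
mt-Co3: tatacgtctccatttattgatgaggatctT
mt-Nd4: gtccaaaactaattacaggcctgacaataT
mt-Cytb: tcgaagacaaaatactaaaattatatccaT

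The 22 tRNA genes, adaptors of mitochondrial translation, gave no measurement. They are 59 to 75 bases long, 14 on the plus and 8 on the minus strand, and each had an effective length of 0 and a count of 0 in both libraries. The longest, mt-Tl1 (chrM:2676-2750, plus strand), and the shortest, mt-Ts2 (chrM:11613-11671, plus strand), are printed to show that neither can hold a 100-base read.
mt-Tl1: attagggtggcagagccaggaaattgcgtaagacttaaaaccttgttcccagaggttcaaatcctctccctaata
mt-Ts2: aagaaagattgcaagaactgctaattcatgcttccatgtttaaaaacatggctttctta
The same held for all 2218 gene rows with an effective length of 0, the longest being 99 bases, none of which had a count. RNA of this size was also below the size range kept, so the 0 of a tRNA row says nothing about its level.

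The rRNAs are the RNA core of the mitochondrial ribosome. mt-Rnr1, the small-subunit 12S rRNA (ENSMUSG00000064337, chrM:70-1024), had 529 TPM in replicate 1, against 935 TPM in replicate 2, on 10094 and 21812 counts. mt-Rnr2, the large-subunit 16S rRNA (ENSMUSG00000064339, chrM:1094-2675), had 2126 TPM in replicate 1, against 3408 TPM in replicate 2, on 70351 and 137800 counts. Both rRNAs were lower in replicate 1, and neither shares a 100-base window with an annotated nuclear row. mt-Rnr2 was 4.02-fold above mt-Rnr1 in replicate 1 and 3.65-fold in replicate 2, a log2 ratio of 1.94 ± 0.10 (SD, n = 2). Together the rRNAs held 0.235% and 0.391% of gene counts, and their summed TPM was 0.131 and 0.179 times that of the 13 mRNAs. Whether the library steps captured rRNAs and mRNAs alike was not tested. This ratio, and the place of the rRNAs among the mRNAs, therefore describe the reads and not the amounts of RNA in the tissue.

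Complex I, the NADH dehydrogenase, takes 7 of the 13 mRNAs. Its highest member, mt-Nd1 (ENSMUSG00000064341, chrM:2751-3707), had 1958 TPM in replicate 1, against 2153 TPM in replicate 2. mt-Nd4 (ENSMUSG00000064363, chrM:10167-11544) had 916 and 1058 TPM. mt-Nd2 (ENSMUSG00000064345, chrM:3914-4951) had 585 and 720 TPM. These 3 membrane-arm subunits were lower in replicate 1, and their deposited TPM intervals in the 2 libraries did not overlap. The same held for 23.2% of the 15571 genes whose mean TPM reached 1. mt-Nd5 (ENSMUSG00000064367, chrM:11742-13565), a further membrane-arm subunit, had 331 TPM in replicate 1, against 337 TPM in replicate 2, the closest agreement of the 15 rows on the log2 scale. mt-Nd6 (ENSMUSG00000064368, chrM:13552-14070, minus strand), the only mRNA encoded on the minus strand, had 388 and 431 TPM. The intervals of mt-Nd6 did not overlap between the libraries, while those of mt-Nd5 did.

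The short complex I genes mt-Nd3 and mt-Nd4l were the lowest rows by mean TPM as deposited. mt-Nd3 (ENSMUSG00000064360, chrM:9459-9806) had 215 TPM in replicate 1, against 388 TPM in replicate 2, on 1196 and 2634 counts. mt-Nd4l (ENSMUSG00000065947, chrM:9877-10173) had 75.7 and 61.6 TPM, on 334 and 333 counts. The deposited interval of mt-Nd4l ran from 16.5 to 183 TPM in replicate 1 and from 18.8 to 137 TPM in replicate 2. It was the only row of the 15 that was higher in replicate 1, and its intervals overlapped. The counts of nuclear copies can be added to those of the gene and set over the effective length of the gene, a choice made after seeing the data. With copies added in this way mt-Nd3 reached 1189 and 1595 TPM and mt-Nd4l 539 and 621 TPM, and both were lower in replicate 1.

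Complex III, the cytochrome bc1 complex, has a single mitochondrial gene, and complex IV, cytochrome c oxidase, has 3 that form its catalytic core. mt-Cytb (ENSMUSG00000064370, chrM:14145-15288), the cytochrome b of complex III, had 2231 TPM in replicate 1, against 2477 TPM in replicate 2. mt-Co1 (ENSMUSG00000064351, chrM:5328-6872) had 1573 and 2259 TPM. mt-Co2 (ENSMUSG00000064354, chrM:7013-7696) had 915 and 1308 TPM. mt-Co3 (ENSMUSG00000064358, chrM:8607-9390) had 1199 and 1644 TPM. All 3 oxidase mRNAs were lower in replicate 1, by a log2 difference between -0.55 and -0.48. The interval of mt-Co3 ran from 783 to 5190 TPM in replicate 1 and from 994 to 6491 TPM in replicate 2, so its deposited TPM lay near the lower bound of a wide range. With copies added, mt-Co1 had 2170 and 2960 TPM, mt-Co2 3097 and 3827 TPM, and mt-Co3 6586 and 8958 TPM.

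Complex V, the ATP synthase, takes 2 mRNAs that form part of its membrane sector and are translated from a shared transcript. mt-Atp6 (ENSMUSG00000064357, chrM:7927-8607) had 5592 TPM in replicate 1, against 6584 TPM in replicate 2, which ranked 5 and 6 among all gene rows. mt-Atp8 (ENSMUSG00000064356, chrM:7766-7969) had 4252 and 4882 TPM. Its TPM rests on an effective length of 105 bases and on 9961 and 13974 counts, against 72610 and 104470 counts for mt-Atp6. The log2 ratio of mt-Atp8 over mt-Atp6 was -0.41 ± 0.03 (SD, n = 2) per effective length and -1.14 per listed length. With copies added it was -0.55. The interval of mt-Atp6 ran from 3811 to 5747 TPM in replicate 1 and from 4391 to 6730 TPM in replicate 2. The gap between the genes of this pair thus depended on how a short row is scaled and on how reads of mt-Atp6 were placed.

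**Figure D1:**
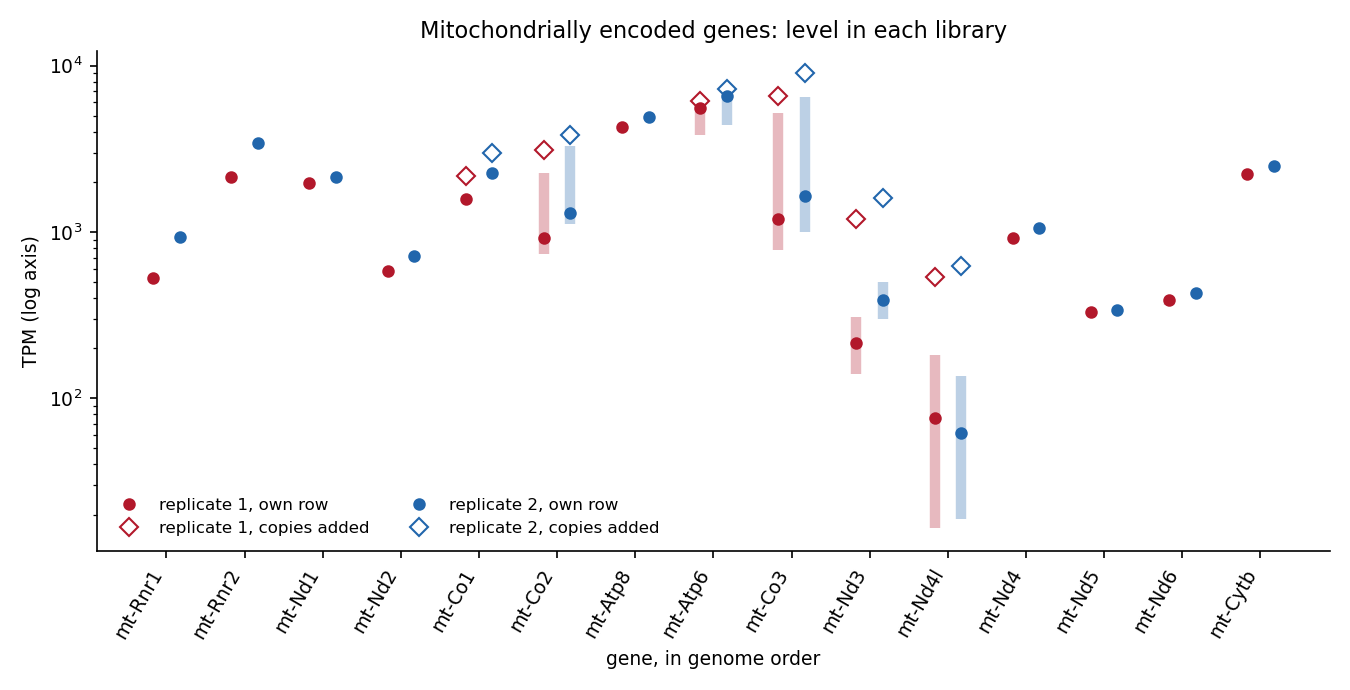
Each filled circle is the deposited TPM of a mitochondrial row (log axis) in replicate 1 (red) or replicate 2 (blue), the pale bar is its deposited interval, and an open diamond adds the counts of nuclear copies where this moves the value by over 1%. The bars are wide for mt-Co2, mt-Atp6, mt-Co3, mt-Nd3 and mt-Nd4l, and mt-Nd4l moves most, to 539 and 621 TPM with copies added.

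Ordered by mean TPM as deposited, the levels ran from mt-Atp6 and mt-Atp8 through mt-Rnr2, mt-Cytb, mt-Nd1, mt-Co1, mt-Co3, mt-Co2, mt-Nd4, mt-Rnr1, mt-Nd2, mt-Nd6, mt-Nd5 and mt-Nd3 to mt-Nd4l. Several neighbours in that order had overlapping ranges of the 2 libraries: mt-Rnr2 with mt-Cytb, mt-Nd5 with mt-Nd3, and each consecutive pair from mt-Nd1 to mt-Nd2. With copies added, mt-Co3 came first, ahead of mt-Atp6 with an overlapping range, and mt-Nd5 came last. The median of the 13 mRNAs was 916 and 1308 TPM as deposited and 1958 and 2153 TPM with copies added. The 5 mRNAs with no shared window (mt-Nd1, mt-Atp8, mt-Nd5, mt-Nd6 and mt-Cytb) also span the range, from 331 and 337 TPM for mt-Nd5 to 4252 and 4882 TPM for mt-Atp8. Levels thus differed also among mRNAs whose reads were all placed on the mitochondrial row.

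Nuclear copies were searched among annotated rows with at least 90% identity over at least 100 bases, and 15 were found. The 8 outside chromosome 1 were between 90.7% and 97.6% identical, 2 of them had any counts, and the highest, Gm13341 on chromosome 2, had 1.13 and 1.03 TPM. The reads lay on the chromosome 1 block. Gm28437, the copy of mt-Co3 (chr1:24613189-24613971), had 5395 TPM in replicate 1, against 7324 TPM in replicate 2, and held 81.8% and 81.6% of the counts of the pair. Gm28661, the copy of mt-Co2 (chr1:24614885-24615565), had 2192 and 2531 TPM and held 70.4% and 65.8% of the pair. Gm29216, which follows bases 1063 to 1545 of mt-Co1 (chr1:24615706-24616197), had 2192 and 2577 TPM and held 27.5% and 23.7%. The share booked on the copy was similar in both libraries but differed widely between genes.

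The other copies in the block show the same unevenness. Gm28438, the copy of mt-Nd3, had 986 and 1222 TPM, or 81.9% and 75.7% of its pair. Gm10222, the copy of mt-Nd4l, had 470 and 568 TPM, or 86.0% and 90.1% of its pair. Gm10925, the copy of mt-Atp6, had 520 and 657 TPM, or 8.47% and 9.03% of its pair. Gm28439, which is identical to the first 876 bases of mt-Nd4, had 0.20 and 0.45 TPM, or 0.0130% and 0.0256% of its pair. Copies of equal identity to their gene therefore held anything from almost none to most of the counts. All copies together held 27.0% and 26.8% of the counts of mitochondrial genes and copies, and adding them brought the mitochondrial share of gene counts to 1.56% and 2.07%.

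**Figure D2:**
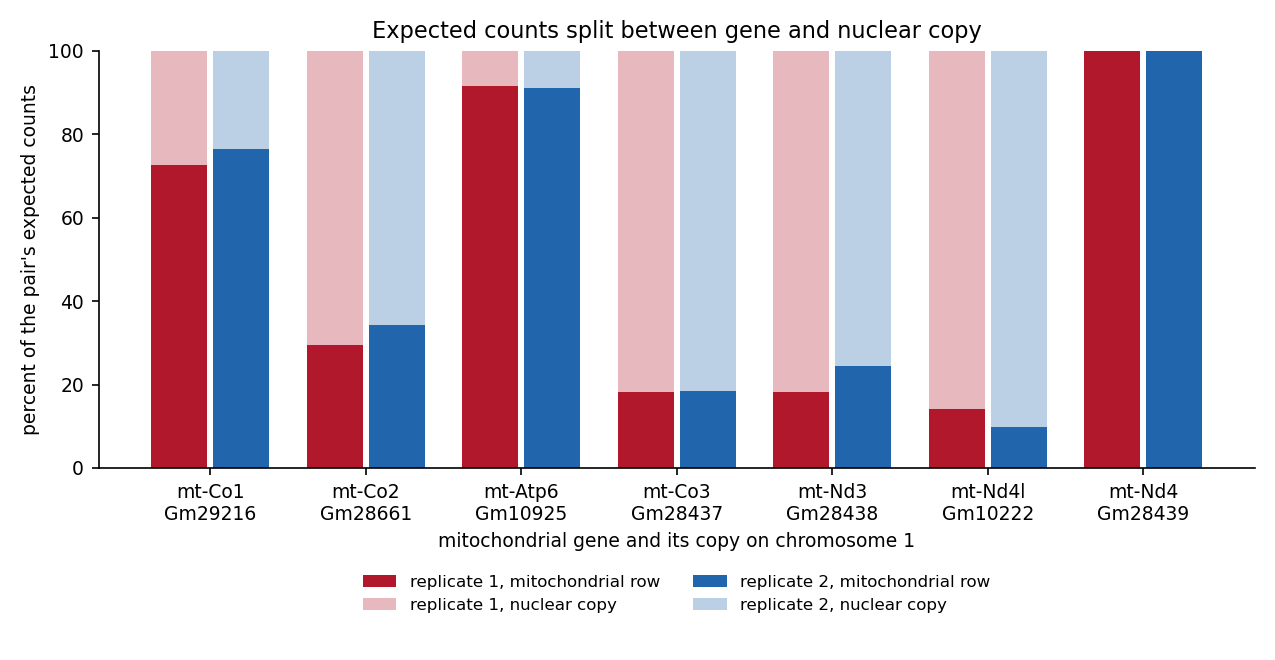
Bars give the percent of expected counts of each gene and its chromosome 1 copy that was booked on the mitochondrial row (dark) and on the copy (pale), for replicate 1 (red) and replicate 2 (blue). Between 81.6% and 90.1% of counts were on the copy for mt-Co3 and mt-Nd4l in both libraries, while mt-Nd4 kept nearly all of its own.

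How much sequence each pair shares was counted as exact 100-base windows. mt-Co3 had 1 window of its own of 685, mt-Co2 3 of 585, mt-Atp6 3 of 582, mt-Nd4l 3 of 198 and mt-Nd3 6 of 249. mt-Co1 had 1000 windows of its own of 1446, mt-Nd4 502 of 1279 and mt-Nd2 909 of 939, the last against Gm13339 on chromosome 2. The 7 rows with no shared window (both rRNAs, mt-Nd1, mt-Atp8, mt-Nd5, mt-Nd6 and mt-Cytb) had a deposited posterior SD of the count of 0 in both libraries, that is, no uncertainty in placing their reads. For mt-Co3 that SD was 24357 counts in replicate 1 and 37925 counts in replicate 2, and it was the same for its copy. For mt-Nd4, with 502 windows of its own beside an identical copy of its first part, it was only 4.28 and 5.21 counts. Where a gene has almost no window of its own, the split from an identical copy is therefore an estimate with a wide error. The sum of gene and copy is not touched by it. Transcription of the chromosome 1 block itself cannot be told apart from mitochondrial transcription where the sequences are identical.

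Ratios between members within a library do not depend on library size. mt-Nd6 was 1.17-fold and 1.28-fold above mt-Nd5, its neighbour on the opposite strand (log2 ratio 0.29 ± 0.09, SD, n = 2). Against the median of the other 12 mRNAs it was 2.73-fold lower in replicate 1 and 3.43-fold lower in replicate 2, and with copies added 5.32-fold and 5.37-fold lower. Whether the library steps captured mt-Nd6 like the other mRNAs was not tested. The sources used here do not say whether counting used strand, and without it the RNA of mt-Nd6 and an RNA of the other strand over the same bases cannot be told apart. mt-Nd4l and mt-Nd4, whose reading frames overlap by 7 bases, stood 12.1-fold and 17.1-fold apart as deposited, and 1.70-fold and 1.71-fold apart with copies added. mt-Co1 over mt-Cytb had a log2 ratio of -0.50 in replicate 1 and -0.13 in replicate 2 as deposited, and of -0.04 and 0.26 with copies added, so the order of these genes was not settled.

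Within each complex the mitochondrially encoded subunits were set beside the nuclear-encoded ones. In complex V the median was 4922 TPM for the mitochondrial and 493 TPM for the 15 nuclear subunits in replicate 1, and 5733 and 450 TPM in replicate 2, which is 9.99-fold and 12.8-fold. In complex III mt-Cytb stood 5.29-fold and 6.59-fold above the median of 9 nuclear subunits. In complex IV the 3 mitochondrial subunits stood 3.10-fold and 4.44-fold above the median of 16 nuclear ones. In complex I the 7 mitochondrial subunits stood 1.70-fold and 1.89-fold above the median of 36 nuclear ones. The mitochondrial median was the higher in all 4 complexes in both libraries, and by least in complex I. With copies added the folds for complex I were 2.56 and 3.16 and those for complex IV were 8.01 and 10.3. One listed complex I gene, Ndufb1, had no matching row. The complex V median takes in mt-Atp8, whose TPM rests on an effective length of 105 bases. Whether the library steps captured mRNAs of both genomes alike was not tested. The folds therefore describe the reads and not the amounts of RNA in the tissue.

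Single subunits show how complete the separation was. mt-Cytb was above all 9 nuclear complex III subunits in both libraries, the highest being Uqcr10 at 538 and 568 TPM. mt-Co1, mt-Co2 and mt-Co3 were above all 16 of complex IV, led by Cox6b1 at 773 and 777 TPM, and mt-Atp6 and mt-Atp8 were above all 15 of complex V, led by the catalytic beta subunit Atp5b at 1798 and 1567 TPM. In complex I mt-Nd1, mt-Nd2 and mt-Nd4 were above all 36, whose highest was Ndufc1 at 488 and 514 TPM. mt-Nd6 was above 32 and 34 of them, mt-Nd5 above 30 and 29, mt-Nd3 above 13 and 33, and mt-Nd4l above 2 and 2. With copies added mt-Nd3 and mt-Nd4l were above all 36 in both libraries, so the overlap in complex I then rested on mt-Nd5 and mt-Nd6.

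**Figure D3:**
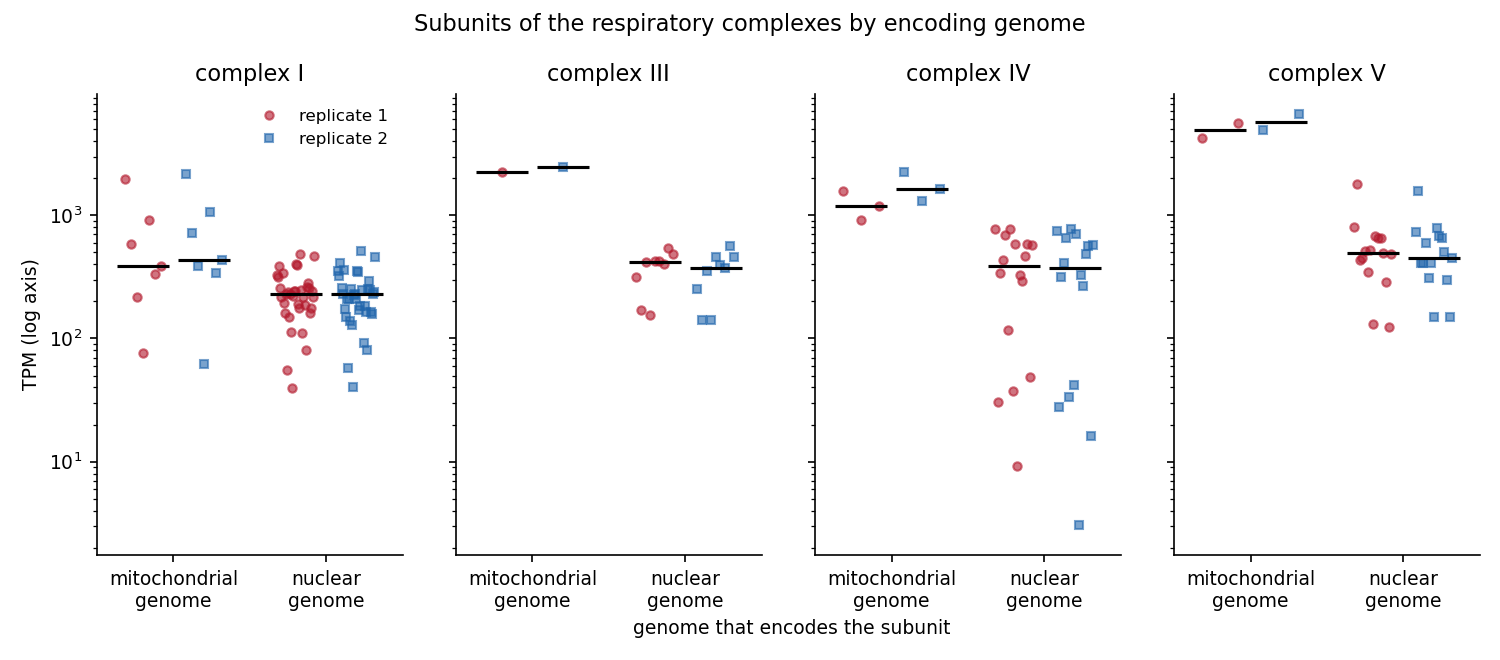
Points are the deposited TPM (log axis) of single subunits in replicate 1 (red circles) and replicate 2 (blue squares), with mitochondrially encoded subunits left of nuclear-encoded ones in each complex and black bars at the medians. The groups are apart in complexes III, IV and V and overlap in complex I, where mt-Nd4l lies at 75.7 and 61.6 TPM.

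For the comparison of the libraries, 0.1 was added to each TPM and the log2 of replicate 1 over replicate 2 was shifted by the median of the 15571 genes whose mean TPM reached 1, which moved values by 0.02. The 15 rows with reads passed this limit and the 22 tRNA rows could not. The median of the 13 mRNAs was -0.23, where the shift sets the median of the 15571 genes to 0. Of the 13 mRNAs, 12 were lower in replicate 1, or all 13 with copies added. Among the 15571 genes the shift itself leaves about as many lower as higher. Of the 15 rows, 3 were over 1.5-fold apart, where 8% of the 15571 genes were, and all 3 were lower in replicate 1, as were 3.12% of genes. They were mt-Rnr1 (log2 -0.85), mt-Rnr2 (-0.70) and mt-Nd3 (-0.87). With copies added mt-Nd3 came to -0.45, and the rRNAs alone were past this fold. Among the 1673 genes whose mean TPM reached 100, as in 14 of the 15 rows, 2.93% were over 1.5-fold apart in either direction. Over 1.5-fold lower in replicate 1 were 0.538% of these genes.

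The mRNAs differed among themselves in this comparison. Those of complex IV had a median of -0.54 (-0.47 with copies added), those of complex V -0.24 and those of complex I -0.17, and mt-Cytb had -0.17. The 5 mRNAs with no shared window had a median of -0.17 and ran from -0.22 for mt-Atp8 to -0.05 for mt-Nd5. From the 5th to the 95th percentile the 15571 genes ran from -0.46 to 0.57, and outside this range lay mt-Co1, mt-Co2, mt-Co3 and mt-Nd3 as deposited and mt-Co1 and mt-Co3 with copies added. The 1673 genes whose mean TPM reached 100 ran from -0.30 to 0.29, and outside that range lay mt-Nd2 (-0.32), mt-Co1, mt-Co2, mt-Co3 and mt-Nd3, both as deposited and with copies added. Both rRNAs were outside either range. The deposited intervals of the 2 libraries did not overlap for 7 of 13 mRNAs and for both rRNAs, against 23.2% of the 15571 genes; such intervals narrow with the number of counts and cover counting and read placement only, not the spread between pools. They go with the posterior mean TPM, and the deposited TPM lay above its own interval for 9 of the 15 rows in each library, as for mt-Nd1 in replicate 1 at 1958 TPM beside an interval from 1889 to 1927. Since there was 1 library from each pool, these differences have no replicate check.

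**Figure D4:**
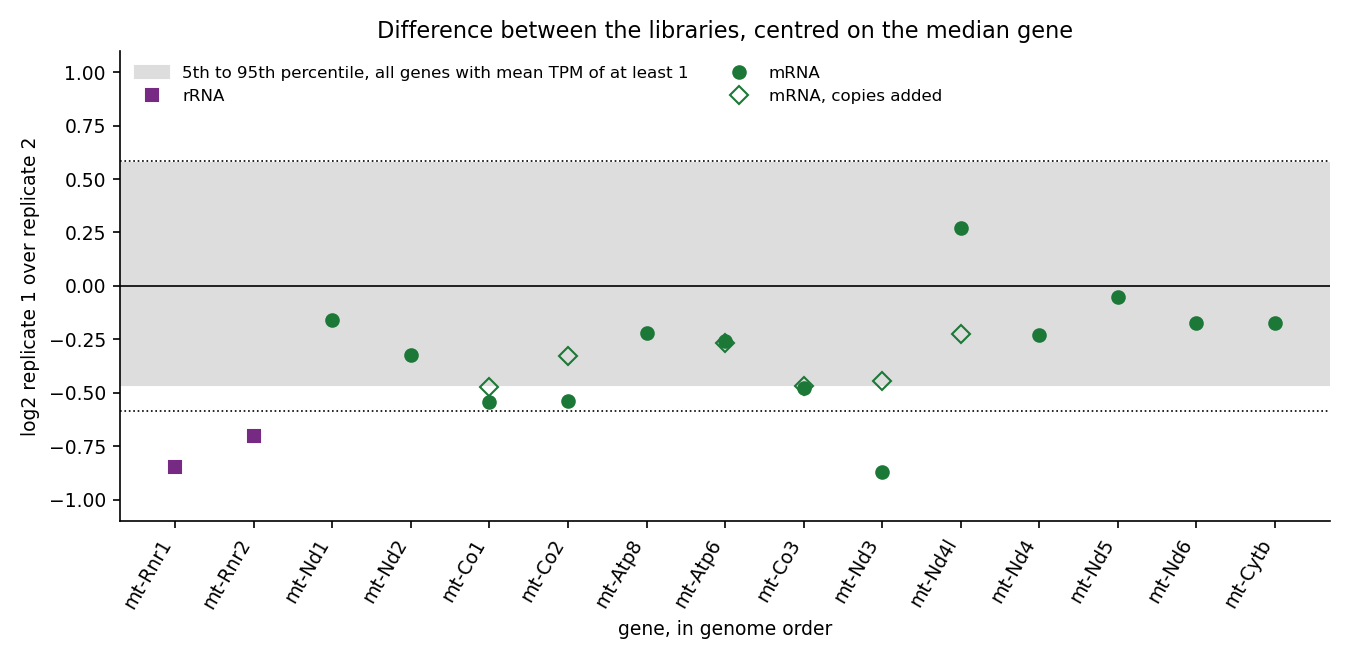
Points give log2 of replicate 1 over replicate 2 for each mitochondrial row in genome order, with squares for rRNAs, circles for mRNAs and open diamonds for mRNAs with copies added. The grey band spans the 5th to 95th percentile of 15571 genes and dotted lines mark 1.5-fold; both rRNAs and mt-Nd3 lie below the lower line, and the copies bring mt-Nd3 to -0.45.

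Lists of nuclear genes that serve the mitochondrial genome had medians near 0. The nuclear subunits of complexes I, III, IV and V had medians of -0.01, 0.09, 0.04 and 0.00, with 18 of 36, 7 of 9, 10 of 16 and 7 of 15 higher in replicate 1. Over 1.5-fold apart, as were 8% of the 15571 genes in either direction, were 3 of complex IV, all higher in replicate 1. They were Cox6a2 at 116 and 33.3 TPM, Cox8b at 49.1 and 16.0 TPM, and Cox7a1 at 9.30 and 3.05 TPM, which are subunit isoforms of heart and skeletal muscle. The 77 mitochondrial ribosomal protein genes, partners of the rRNAs, had a median of 0.02, with 43 higher and 34 lower in replicate 1 and none past 1.5-fold. The rRNAs thus stood at -0.85 and -0.70 beside protein partners between -0.26 and 0.57.

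The machinery that copies, transcribes and processes mitochondrial DNA was also near 0. The 10 transcription genes, from Mterf3 (50.4 and 52.1 TPM) down to Mterf1b (3.25 and 3.20 TPM), had a median of 0.00 and ran from -0.20 for Polrmt, the mitochondrial RNA polymerase (30.7 and 34.9 TPM), to 0.08, with Tfam, which packages and helps transcribe the genome, at 49.6 and 48.8 TPM. The 20 genes of RNA processing and decay had a median of 0.02, with 14 higher in replicate 1. Slirp, their highest, an RNA-binding partner that stabilises mitochondrial mRNAs, had 204 and 242 TPM, a log2 difference of -0.28. The 10 genes of replication and nucleotide supply had a median of 0.03, and the 17 synthetases that charge mitochondrial tRNAs had 0.02. Lars2, the leucine enzyme, stood far above the other synthetases at 690 and 875 TPM (log2 -0.37), the next being Rars2 at 52.8 and 49.2 TPM. Whether reads of other RNAs add to the Lars2 row was not tested. Of the 8 regulators of mitochondrial biogenesis, Ppargc1a (3.63 and 2.26 TPM) and Ppargc1b (5.43 and 3.29 TPM) were over 1.5-fold apart, both higher in replicate 1. Among the 15571 genes 8% were that far apart in either direction.

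Marker lists of other tissues moved with the libraries as well. All 9 skeletal muscle markers were over 1.5-fold higher in replicate 1, with a median log2 difference of 1.48, and all 4 liver markers were over 1.5-fold lower in replicate 1, with Afp at 3.41 and 21.5 TPM. Of the 15571 genes, 8% were over 1.5-fold apart in either direction and 3.12% over 1.5-fold lower in replicate 1. The 9 limb markers had a median of -0.18, and 3 of them were over 1.5-fold lower in replicate 1. These were the hindlimb factor Pitx1 (-0.71) and the distal limb factors Hoxa13 (-0.64) and Hoxd13 (-0.62), beside the hindlimb factor Tbx4 at -0.54 and the forelimb factor Tbx5 at 0.39. The 6 red cell markers had a median of -0.02 with summed levels of 30598 and 30999 TPM. Of 4 heart markers the sum was 11.7 and 8.0 TPM, and of 4 brown fat markers it was 8.8 and 1.7 TPM, with Ucp1 at 0.03 and 0.00 TPM. The part of these tissues in the difference of the mitochondrial rows was not tested. In bulk RNA fewer cells of a type and less RNA in each cell cannot be told apart.

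**Figure D5:**
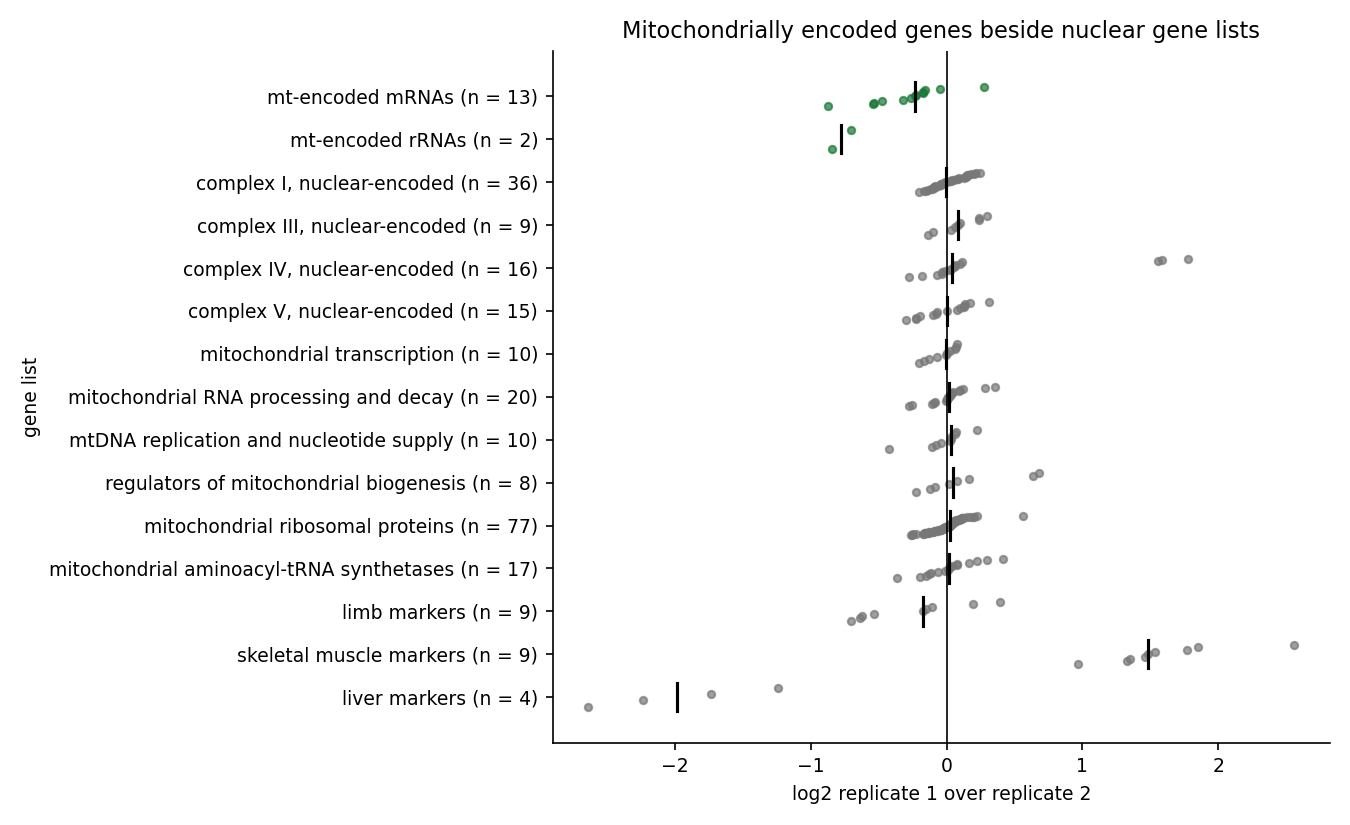
Each point is the log2 of replicate 1 over replicate 2 of a gene whose mean TPM reached 1, in green for mitochondrially encoded genes and in grey for nuclear lists, and black bars are medians. The mitochondrial mRNAs (-0.23) and rRNAs (-0.77) lie left of 0, the lists of nuclear mitochondrial genes lie around it, and muscle markers (1.48) lie to the right.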

How the data were processed

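For each library the authors deposited a gene table. Per the file headers it holds expected counts (reads shared among the genes they match, so not always whole), TPM and posterior mean TPM scaled to a total of 1000000 over all rows with spike-ins, FPKM, and an interval for TPM whose level is not stated. The assembly was mm10 per the labels and the annotation GENCODE M4 per the deposited sample records; which aligner and counter were used is not stated in the labels or file headers. Identifiers were matched without version to GENCODE M21, which named 42462 of 43346 gene rows; 97 spike-in rows and 26248 numeric rows were left out of gene totals.

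Genes of mitochondria and all gene lists were chosen with earlier results of these data known. Named genes were the 13 mRNAs, 2 rRNAs, copies whose mean TPM reached 1 and, from each nuclear list, some of its 3 highest and 2 lowest by mean TPM or those past 1.5-fold; Gm28439, Gm13339 and single marker genes were chosen after their values were seen. Copies were found with BLAST+ 2.17.0, and shared windows among 101510 of 103639 indexed transcripts that had a sequence. A value with copies added is the TPM of a gene times its counts plus those of its copies, over its own counts. This was chosen after seeing the data in place of a sum of TPM, since Gm29216 copies only part of mt-Co1 and its TPM rests on a shorter row. Ratios were log2 of TPM with 0.1 added. TMM scaling used edgeR 4.0.16 on rounded expected counts of at least 10. Other steps used Python 3.11.15, numpy 2.4.6, pandas 2.3.3 and matplotlib 3.10.9, and the ratio and window steps were checked on simulated data. A count of 0 allows up to 3 counts, or 0.0875 (replicate 1) and 0.0735 (replicate 2) per 1000000 gene counts. Amplified reads are no independent molecules, so such limits and the intervals cover counting error only.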

Additional observations from a re-analysis of the deposited data

How the results depend on the processing

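No paired analysis was possible because the series has 1 group. With nuclear copies added, the mitochondrial share of gene counts was 1.81%, and as a share of TPM it was 2.72%, against 1.33%; without replicate 1 or 2 it ranged from 1.14% to 1.52%. The median of the 13 mRNAs (1112 TPM as the mean of both libraries) was 1602 as posterior mean TPM, 718 as FPKM, 2055 with copies added as TPM or as counts and 2055 over mRNAs with no shared window, an alternative chosen after seeing the data, and 916 to 1308 without a replicate. Their median log2 of replicate 1 over replicate 2 was -0.21 not centred, -0.26 with spike-in scaling, -0.22 with all detected genes for centring and -0.17 over mRNAs with no shared window. It kept its sign under all 9 alternatives, and among single genes the sign turned for mt-Nd4l alone (-0.23 with copies added as TPM or as counts). Over 2-fold apart were 0 rows, against 3 over 1.5-fold.

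Counts not divided by length gave log2 ratios of 2.73 for mt-Rnr2 over mt-Rnr1, -1.75 for mt-Nd6 over mt-Nd5, -2.24 for mt-Nd6 over the other mRNAs, -2.88 for mt-Atp8 over mt-Atp6, -6.54 for mt-Nd4l over mt-Nd4, 0.15 for mt-Co1 over mt-Cytb and -1.73 for rRNAs over mRNAs. Listed length gave 0.066 for mt-Nd6 over mt-Nd5, -1.14 for mt-Atp8 over mt-Atp6 and -4.32 for mt-Nd4l over mt-Nd4. Posterior mean TPM gave -2.08 for mt-Nd6 over the other mRNAs and -0.22 for mt-Atp8 over mt-Atp6. The TPM of copies added gave -2.43 for mt-Nd6 over the other mRNAs, -0.55 for mt-Atp8 over mt-Atp6, -0.75 for mt-Nd4l over mt-Nd4, 0.86 for mt-Co1 over mt-Cytb and -3.38 for rRNAs over mRNAs. Counts of copies added gave -2.42, -0.55, -0.77, 0.11 and -3.31 for the same 5 ratios. The ratio of mt-Nd6 to mt-Nd5 changed sign in both libraries with counts not divided by length. The mean ratio of mt-Co1 to mt-Cytb changed sign under 3 alternatives. In single libraries it was -0.04 in replicate 1 and 0.34 in replicate 2 with counts not divided by length, and -0.04 and 0.26 with counts of copies added. Its value with the TPM of copies added is raised by adding the TPM of a 492-base row to that of a 1545-base gene. Beyond the construction of each alternative the cause was not tested.

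The log2 of the mitochondrial over the nuclear median was 1.55 for complex I with means in place of medians, 1.51 for complex I and 3.49 for complex IV with the TPM of copies added, 1.51 and 3.19 with their counts added, and 1.31 for complex IV without tissue-restricted nuclear subunits. Leaving out a replicate gave 0.76 to 0.92 for complex I, 2.40 to 2.72 for complex III, 1.63 to 2.15 for complex IV and 3.32 to 3.67 for complex V. With 2 libraries the spread between pools is itself poorly known. Among the rows with reads mt-Nd4l had the fewest counts, 334 and 333. The placing of its reads limits it as well, with a posterior SD of 214 counts in replicate 1 and 183 counts in replicate 2.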
